A study of Homo sapiens with 9 samples.

Results

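The 8 ATP-binding cassette (ABC) transporters ABCB1, ABCG2, ABCC1, ABCC2, ABCC3, ABCC4, ABCC5 and ABCC10, which are best known for pumping drugs out of cells, were followed by RNA-Seq in PC3 xenografts. They were chosen by gene name, and all 8 were listed in both deposited tables of read counts, among 16204 genes listed in either. PC3 is an established line from a prostate cancer metastasis. According to the series record, PC3 cells in Matrigel were placed under the skin of 11-week-old male NSG mice. Dosing began at a tumor volume of 90 mm3 and was given weekly by the retro-orbital route for 5 cycles, with either PBS as vehicle or 5 mg/kg of P-DXd or T-DXd, and tumors were taken at the end of the experiment. The study's methods give another age, starting volume and number of cycles for the comparison of both conjugates. They give the record's age, volume and cycles for a separate T-DXd experiment at another dose, and state that vehicle and 5 mg/kg tumors were sequenced. NSG mice lack T, B and NK cells, so only other host cells could enter the tumors, and all 9 libraries came from 1 cell line.

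P-DXd (patritumab deruxtecan) is an antibody against HER3, and T-DXd (trastuzumab deruxtecan) an antibody against HER2, and both carry the topoisomerase I inhibitor deruxtecan. There were 3 PBS, 3 P-DXd-titled and 3 T-DXd-titled libraries. The groups are named here after the sample titles, because the treatment field names the opposite conjugate in 6 of 9 libraries, that is, in every treated library. The comparison of all 6 treated libraries with PBS does not depend on which label is right. Replicate numbers only name libraries. Nothing in the labels ties each library to a separate mouse, so p-values measure the spread between these libraries.

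ABC exporters are membrane proteins that use ATP to move substrates out of the cell. ABCB1 (P-glycoprotein, MDR1) and ABCG2 (BCRP) are the classical multidrug pumps of barrier tissues, and the ABCC members are the multidrug resistance proteins (MRPs), many of which export drugs joined to glutathione, glucuronide or sulfate. The payload released from these conjugates is known as a substrate of ABCB1, ABCG2 and ABCC1 (MRP1), and camptothecin-type drugs are among the classical cargoes of ABCG2.

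Libraries held 54481702 to 125538606 counts, and the shallowest PBS library had more counts than the deepest treated one. PBS replicate 1 stood apart from the other PBS libraries. The chi-square per gene was 316 and 388 against them and 37.5 between them, and PTGS2, the inducible prostaglandin synthase, was at 518 CPM (counts scaled to a common library total) there against 42.4 and 39.0. P-DXd-titled replicate 2 held the most skeletal muscle signal, with 8 of 8 markers listed and a summed level of 3166 CPM, against 57.4 and 182 CPM in its group, 145 to 193 CPM in T-DXd-titled and 6.90 to 38.9 CPM in PBS libraries. All 7 markers listed for PC3 (KRT8, KRT18, KRT19, EPCAM, CDH1, CD44 and VIM) were present. Their sums were 2609 to 3546 CPM in PBS, 4124 to 4750 CPM in P-DXd-titled and 4300 to 4727 CPM in T-DXd-titled libraries. The markers did not move alike, with log2 fold changes over both conjugates from -0.21 for CD44 and 0.03 for VIM to 1.31 for KRT8. Summed macrophage markers (7 of 10 listed in at least one table, 6 in both) were at 4.44 to 4.64 CPM in PBS, 9.74 to 14.4 CPM in P-DXd-titled and 15.0 to 21.1 CPM in T-DXd-titled libraries, with CD68 at 0 in at least 1 of the 9 libraries. Summed fibroblast markers (10 of 10 listed) were at 2029, 1143 and 1065 CPM in PBS replicates 1, 2 and 3, at 1232 to 2139 CPM in P-DXd-titled and at 2070 to 2233 CPM in T-DXd-titled libraries. The fibroblast markers did not move alike either. Their log2 fold changes over both conjugates ran from -0.92 for ACTA2 and 0.15 for COL1A1 to 1.37 for COL3A1 and 1.85 for DCN. Host cells are from mouse and the counts are of human genes, and how mouse reads were handled is not given. The macrophage, fibroblast and muscle sums are therefore not amounts of host cells. In bulk tumors, fewer cells of a type and less RNA per cell cannot be told apart, and the part of other cell types and of depth in the differences below was not tested.

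ABCC3 had the highest mean level of the 8 transporters in PBS and in treated tumors. To compare genes with each other, levels were expressed as CPM per kb of the canonical transcript. In PBS tumors the order was ABCC3 (15.8 ± 9.53 CPM per kb, SD, n = 3), ABCC1 (10.4 ± 0.748), ABCC5 (10.2 ± 1.19), ABCC10 (7.57 ± 0.272), ABCC4 (7.48 ± 1.34), ABCC2 (0.418 ± 0.147), ABCB1 (0.0495 ± 0.0508) and ABCG2 (0.0397 ± 0.0125). The PBS libraries overlapped between ABCC3 and ABCC1 (ABCC3 was at 4.82 CPM per kb in PBS replicate 1, below ABCC1, ABCC5, ABCC4 and ABCC10 there), between ABCC1 and ABCC5, between ABCC10 and ABCC4, and between ABCB1 and ABCG2, so these neighbors were not ordered beyond their spread. In the 6 treated libraries ABCC3 was at 39.4 ± 2.25 CPM per kb (SD, n = 6) and overlapped no other member. ABCC1 (7.45 ± 0.673), ABCC10 (6.99 ± 0.422), ABCC4 (6.0 ± 0.488) and ABCC5 (5.18 ± 0.633) followed, each overlapping the next across libraries. Within every treated library, however, ABCC10 was above ABCC4 and ABCC4 above ABCC5. ABCC1 was above ABCC10 in every treated library except P-DXd-titled replicate 2. ABCC2 (0.146 ± 0.0214), ABCB1 (0.0621 ± 0.0262) and ABCG2 (0.0560 ± 0.0173) were again the lowest, the last pair overlapping.

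**Figure D1:**
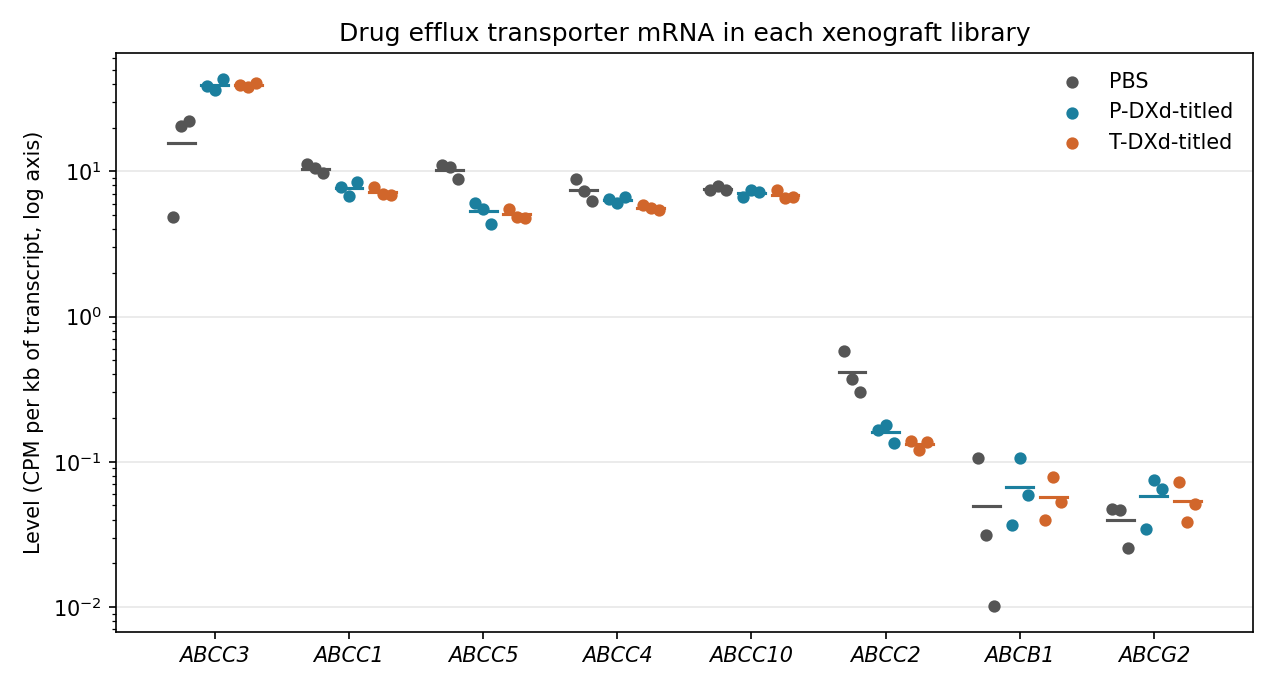
Level of each transporter in CPM per kb of transcript (log axis) in the 9 libraries, by group, where each point is 1 library and each line a group mean (n = 3). ABCC3 rises from 15.8 in PBS to 39.4 CPM per kb in treated libraries with 1 low PBS library, and ABCC2, ABCB1 and ABCG2 lie far below the other 5.

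ABCC3 made up a larger part of the summed transporter level in every treated library than in any PBS library. Its share of the summed CPM per kb of all 8 members was 11.0%, 35.7% and 40.5% in PBS replicates 1, 2 and 3. It was 58.8%, 58.3% and 61.4% in the P-DXd-titled and 59.4%, 61.0% and 62.9% in the T-DXd-titled libraries. The groups did not overlap. The sum over all 8 members was 44, 57.3 and 54.6 CPM per kb in PBS and 62.3 to 70.0 in treated libraries. Without ABCC3, the other 7 summed to 32.5 to 39.2 CPM per kb in PBS and 23.9 to 27.1 in treated libraries, so treated libraries were above PBS in the total and below it in the sum without ABCC3, with no overlap in either and no test made. Of all genes taken singly, 50.6% likewise did not overlap between treated and PBS libraries.

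**Figure D2:**
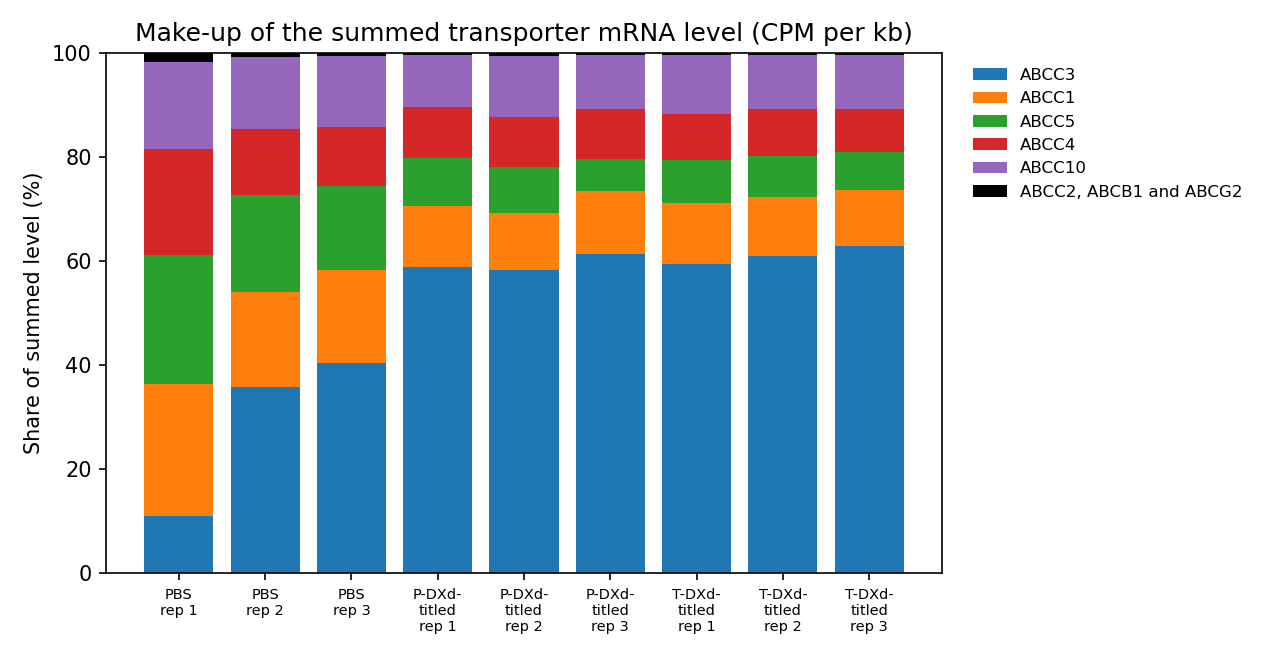
Share of the summed level (percent of CPM per kb over the 8 members) held by each transporter in each library. The ABCC3 block is 11.0% to 40.5% in PBS and 58.3% to 62.9% in treated libraries.

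Against PBS, ABCC3 rose and ABCC2 and ABCC5 fell in the treated tumors, ABCC1 and ABCC4 fell by less than 1.5-fold, and the classical pumps ABCB1 and ABCG2 did not pass the test. A gene was called at an adjusted p of at most 0.05 and a fold change of at least 1.5 (edgeR quasi-likelihood F test, Benjamini-Hochberg over all genes tested). With both conjugates as 1 group, 3 of 8 members were called against 32.2% of all genes, 1 higher (15.2% of all genes) and 2 lower (17.1%). In the P-DXd-titled tumors 2 members were called against 25.0% of all genes, none higher and both lower (13.8% of all genes were called lower). In the T-DXd-titled tumors 2 were called against 28.6% of all genes, again both lower (15.5%). An adjusted p of at most 0.05 at any fold was reached by 5, 3 and 4 members in these comparisons, against 55.7%, 34.0% and 42.3% of all genes. The median log2 fold change over the members was -0.24, -0.17 and -0.30, and over all genes tested -0.01, -0.01 and -0.02. Groups did not overlap for 4, 5 and 5 members, against 50.6%, 55.4% and 61.3% of all genes. All these comparisons share the 3 PBS libraries.

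**Figure D3:**
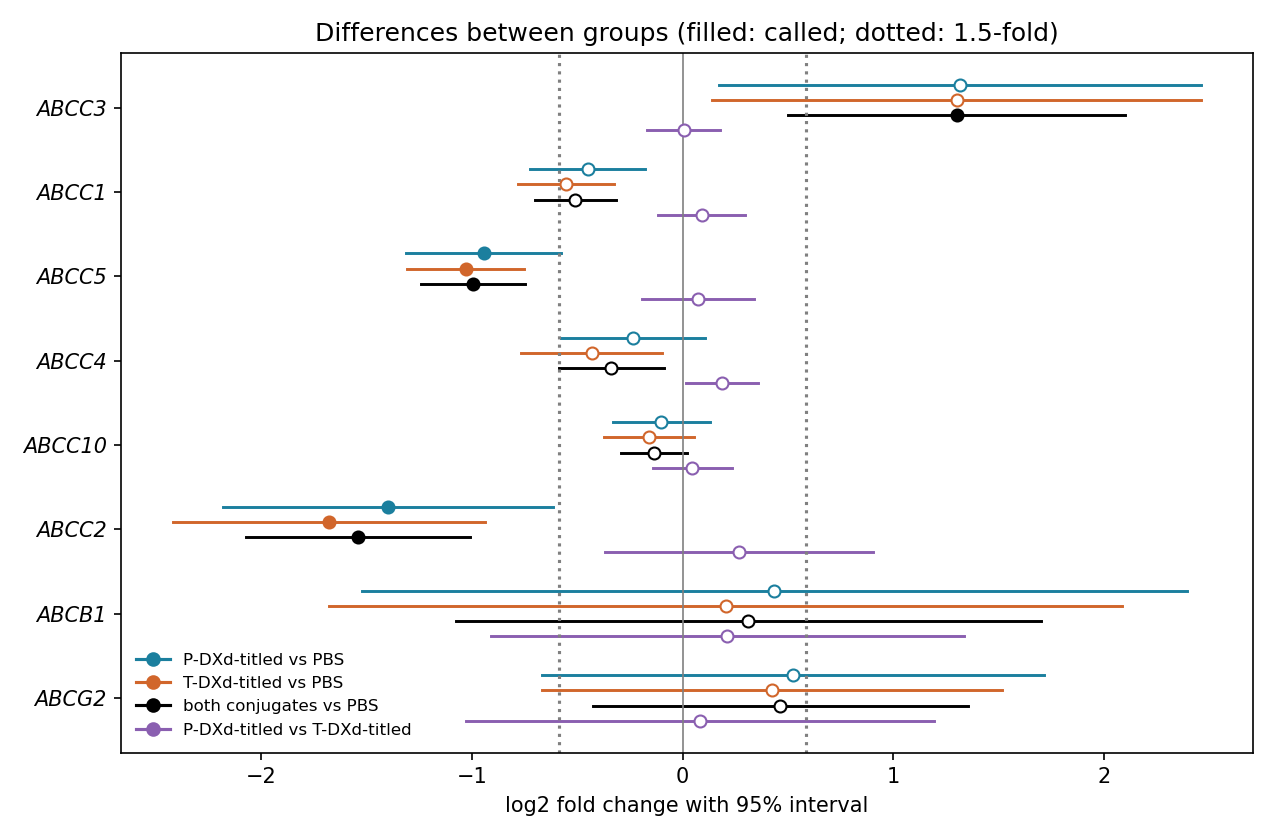
Log2 fold change with its 95% interval for each transporter in 4 comparisons. Filled points were called, and dotted lines mark 1.5-fold. The points of ABCC2 and ABCC5 lie left of the line in all 3 comparisons with PBS, those of ABCC3 right of it, and the intervals between the conjugates all cover 0 except that of ABCC4 (0.01 to 0.36).

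ABCC3 (MRP3, ENSG00000108846.11, listed on chromosome 17 from 48712138 to 48769613) exports glucuronides and bile salts across the basolateral membrane. It was at 27.5, 117 and 126 CPM in PBS replicates 1, 2 and 3. The P-DXd-titled libraries gave 220, 208 and 245 CPM and the T-DXd-titled libraries 223, 216 and 231 CPM. Every treated library was above every PBS library, and PBS replicate 1 was far below the other 2. The coefficient of variation was 60.4% in PBS and 8.37% and 3.38% in the P-DXd-titled and T-DXd-titled groups. ABCC3 was 2.46-fold higher over both conjugates (95% interval 1.42 to 4.29, log2 1.3 ± 0.36, SE, adjusted p = 0.0108). In the separate comparisons the estimates were 2.49-fold for P-DXd-titled (interval 1.13 to 5.50, adjusted p = 0.0732) and 2.46-fold for T-DXd-titled tumors (1.1 to 5.50, adjusted p = 0.0696), which missed the threshold. Without PBS replicate 1 both were called, at smaller log2 fold changes of 0.89 and 0.87, and over both conjugates the value was 0.88. With all 9 libraries in 1 fit both were also called, and DESeq2 called the T-DXd-titled comparison. Across the alternatives the adjusted p ranged from 2.94e-04 to 0.178 for P-DXd-titled, from 1.13e-07 to 0.160 for T-DXd-titled and from 1.37e-06 to 0.0214 for both conjugates.

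ABCC2 (MRP2, ENSG00000023839.6, chromosome 10, 101542489 to 101611949) exports conjugates at the apical membrane, as in the bile canaliculus. Its level was 3.38, 2.14 and 1.75 CPM in PBS. It was 0.958, 1.03 and 0.778 CPM in the P-DXd-titled and 0.802, 0.703 and 0.796 CPM in the T-DXd-titled libraries. All treated libraries were below all PBS libraries, on raw counts of 51 to 80 against 197 to 304. ABCC2 was 2.91-fold lower over both conjugates (log2 -1.54 ± 0.24, adjusted p = 3.80e-04), 2.64-fold lower in P-DXd-titled (log2 -1.40 ± 0.33, adjusted p = 0.0191) and 3.20-fold lower in T-DXd-titled tumors (log2 -1.68 ± 0.31, adjusted p = 0.00664). The P-DXd-titled call was lost when any 1 P-DXd-titled library was left out, with log2 fold changes of -1.44, -1.48 and -1.29 and adjusted p of 0.0599, 0.0510 and 0.0783 without replicates 1, 2 and 3, and the adjusted p ranged from 5.54e-04 to 0.0783 over all its alternatives.

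ABCC5 (MRP5, ENSG00000114770.12, chromosome 3, 183637722 to 183735803) exports cyclic nucleotides and nucleotide analogs. It was at 63.5, 62.0 and 51.0 CPM in PBS. The P-DXd-titled libraries gave 35.2, 32.1 and 25.0 CPM and the T-DXd-titled libraries 31.7, 28.3 and 27.7 CPM. The highest treated library was well below the lowest PBS library. ABCC5 was 1.99-fold lower over both conjugates (log2 -0.99 ± 0.11, adjusted p = 4.87e-05), 1.92-fold lower in P-DXd-titled (log2 -0.94 ± 0.16, adjusted p = 0.00618) and 2.04-fold lower in T-DXd-titled tumors (log2 -1.03 ± 0.12, adjusted p = 0.00131). It was called in each of the 15, 12 and 12 alternatives run for these comparisons.

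The 250 bases before the RefSeq start sites of ABCC2 and ABCC5 are shown because these genes fell together in both treated groups. They are on GRCh38.p14, at chr10:99782390-99782639 on the plus strand and chr3:184017885-184018134 on the minus strand, 5′ to 3′ in the direction of transcription. The gene coordinates listed above mostly do not match GRCh38, so they cannot be set against these windows. Capitals mark matches to the TATA box letters TATAAA and the GC box letters GGGCGG on either strand.
ABCC2: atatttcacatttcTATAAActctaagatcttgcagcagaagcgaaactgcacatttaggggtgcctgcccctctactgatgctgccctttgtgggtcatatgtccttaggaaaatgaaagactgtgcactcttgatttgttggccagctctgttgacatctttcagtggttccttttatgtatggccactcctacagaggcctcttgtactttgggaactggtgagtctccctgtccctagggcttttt
ABCC5: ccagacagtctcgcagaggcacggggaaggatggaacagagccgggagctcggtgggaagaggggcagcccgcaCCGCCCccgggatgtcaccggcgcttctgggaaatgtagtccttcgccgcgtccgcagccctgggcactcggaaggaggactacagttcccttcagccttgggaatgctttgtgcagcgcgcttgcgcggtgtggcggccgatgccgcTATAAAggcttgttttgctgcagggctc
ABCC2 held 1 TATA match, near the upstream end of its window and far from the start site. ABCC5 held 1 TATA match, near the start site, and 1 GC box match. Among 35116 RefSeq promoter windows of this length, 10.7% held a TATA match and 42.6% a GC box match. The other motifs searched on both strands were the antioxidant response element (TGACNNNGC, in 10.9% of windows), the E box CACGTG (6.34%) and the CCAAT box CCAAT (32.0%), and neither window held these letters. Of the 8 members 6 had an entry, 12 entries in all. The ABCC4 window held an antioxidant response element match, and 1 ABCB1 window held 2 CCAAT matches. For ABCC10, which was not called, 1 window held 1 TATA match, 1 E box and 1 antioxidant response element match. Another ABCC10 window held 3 GC box matches. A TATA match was thus not particular to the members that fell. ABCG2 had 2 overlapping windows with 2 GC box matches and 1 E box each. A match is a description of letters, not of a bound site.

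ABCC1 and ABCC4 were lower in treated tumors by smaller steps. ABCC1 (MRP1, ENSG00000103222.14, chromosome 16, 16043434 to 16236931) exports glutathione conjugates and many unmodified drugs. It was at 72.6, 68.3 and 62.9 CPM in PBS, 50.5, 44.1 and 55.1 CPM in P-DXd-titled and 50.6, 45.5 and 44.6 CPM in T-DXd-titled libraries. No treated library reached a PBS library. The decrease was 1.42-fold over both conjugates (log2 -0.51 ± 0.09, adjusted p = 6.48e-04), 1.37-fold in P-DXd-titled (log2 -0.45 ± 0.12, adjusted p = 0.0240) and 1.47-fold in T-DXd-titled tumors (log2 -0.55 ± 0.10, adjusted p = 0.00512), so the p threshold was passed and the fold threshold missed each time. The T-DXd-titled value passed both without PBS replicate 3 (log2 -0.61) or without T-DXd-titled replicate 1 (log2 -0.61). The P-DXd-titled adjusted p was 0.0688 without PBS replicate 2, and 0.0711 and 0.0819 without P-DXd-titled replicates 1 and 2.

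ABCC4 (MRP4, ENSG00000125257.9, chromosome 13, 95672083 to 95953687) exports cyclic nucleotides and prostaglandins. It was at 52.1, 42.7 and 36.6 CPM in PBS. The P-DXd-titled libraries gave 37.5, 35.4 and 39.2 CPM and the T-DXd-titled libraries 34.3, 32.9 and 31.5 CPM. The T-DXd-titled libraries lay below all PBS libraries, and the P-DXd-titled libraries overlapped PBS replicate 3. ABCC4 was 1.27-fold lower over both conjugates (log2 -0.34 ± 0.11, adjusted p = 0.0251) and 1.35-fold lower in T-DXd-titled tumors (log2 -0.43 ± 0.14, adjusted p = 0.0453), with a log2 fold change of -0.24 (adjusted p = 0.240) in P-DXd-titled tumors. Over both conjugates the log2 fold change without PBS replicate 1 was -0.18 (adjusted p = 0.114), and without T-DXd-titled replicate 2 or 3 the adjusted p was 0.0540 or 0.0564. In the T-DXd-titled comparison the adjusted p was 0.0877 without PBS replicate 2 and 0.105, 0.128 and 0.143 without T-DXd-titled replicates 1, 2 and 3.

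ABCC10 (MRP7, ENSG00000124574.10, chromosome 6, 43395104 to 43418168), an exporter of taxanes and other lipophilic drugs, had the narrowest PBS spread of the 8. It was at 37.4, 39.8 and 37.4 CPM in PBS, 33.5, 37.3 and 36.6 CPM in P-DXd-titled and 37.6, 32.9 and 33.6 CPM in T-DXd-titled libraries. The values lay close together in all groups, and T-DXd-titled replicate 1 was inside the PBS range. The log2 fold change was -0.14 over both conjugates (fold 0.909, interval 0.815 to 1.01, adjusted p = 0.121), -0.10 in P-DXd-titled (adjusted p = 0.445) and -0.16 in T-DXd-titled tumors (adjusted p = 0.194). ABCC10 overlaps the listed gene DLK2 (6.98, 3.41 and 3.47 CPM in PBS, 1.85 to 3.65 CPM in treated libraries), so reads in the overlap are uncertain.

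ABCB1 and ABCG2 were barely detected in any group, with raw counts of 6 to 50 and 12 to 25 per library. ABCB1 (ENSG00000085563.10, chromosome 7, 87133175 to 87342611) had 50, 21 and 6 counts in PBS, which is 0.556, 0.163 and 0.0532 CPM. The exact Poisson intervals, which cover counting error only, were 0.413 to 0.733, 0.101 to 0.249 and 0.0195 to 0.116 CPM. PBS replicate 1 was thus 10.5-fold above replicate 3, beyond counting error. The P-DXd-titled libraries gave 0.192, 0.554 and 0.305 CPM and the T-DXd-titled libraries 0.207, 0.406 and 0.275 CPM. The treated libraries lay inside the PBS range. The log2 fold change over both conjugates was 0.31 ± 0.63 (fold 1.24, interval 0.474 to 3.25, adjusted p = 0.692), with 0.43 (adjusted p = 0.707) in P-DXd-titled and 0.20 (adjusted p = 0.853) in T-DXd-titled tumors.

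The ABCB1 value moved with single libraries. Without PBS replicate 1 the log2 fold change over both conjugates was 1.53 and the gene was called (adjusted p = 0.0476). Dropping PBS replicate 3 instead gave -0.18 (adjusted p = 0.804). In the P-DXd-titled and T-DXd-titled comparisons the values without PBS replicate 1 were 1.64 (adjusted p = 0.101) and 1.41 (adjusted p = 0.0747). The P-DXd-titled value was -0.069 without PBS replicate 3 and -0.042 without P-DXd-titled replicate 2. In the T-DXd-titled comparison it was -0.051 and -0.29 without PBS replicates 2 and 3, and -0.095 without T-DXd-titled replicate 2. Over all alternatives for both conjugates the adjusted p ranged from 0.0476 to 0.952. ABCB1 is known in the endothelium of barrier vessels. Summed endothelial markers (8 of 10 listed, PECAM1 and EMCN not listed) were at 13.8, 7.50 and 6.11 CPM in PBS, 7.54, 13 and 13 CPM in P-DXd-titled and 11.2, 11.2 and 11.5 CPM in T-DXd-titled libraries. The PBS order was the same as for ABCB1, but also as for ABCC1, ABCC2, ABCC4, ABCC5 and the fibroblast sum. In the P-DXd-titled group replicate 1 was lowest in both the endothelial sum and ABCB1. The T-DXd-titled sums were nearly equal, while ABCB1 was at 0.207, 0.406 and 0.275 CPM there. Over both conjugates 1 of 8 markers was called higher, against 15.2% of all genes, and none lower. Host vessels are from mouse and the counts are of human genes, so these sums are not a measure of host vessels. No listed endothelial marker was at 0 in any library. RUNDC3B, which overlaps ABCB1, was at 0.823, 0.241 and 0.0709 CPM in PBS and at 0.0135 to 0.0958 CPM in treated libraries. The part of either in the ABCB1 values was not tested.

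ABCG2 (ENSG00000118777.6, chromosome 4, 89011416 to 89152474) had 18, 25 and 12 counts in PBS, 0.200, 0.194 and 0.106 CPM. The P-DXd-titled libraries gave 0.144, 0.314 and 0.275 CPM and the T-DXd-titled libraries 0.304, 0.162 and 0.214 CPM. The groups overlapped. The log2 fold change was 0.46 ± 0.40 over both conjugates (fold 1.38, interval 0.743 to 2.56, adjusted p = 0.348), 0.52 (adjusted p = 0.446) in P-DXd-titled and 0.42 (adjusted p = 0.484) in T-DXd-titled tumors.

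**Figure D4:**
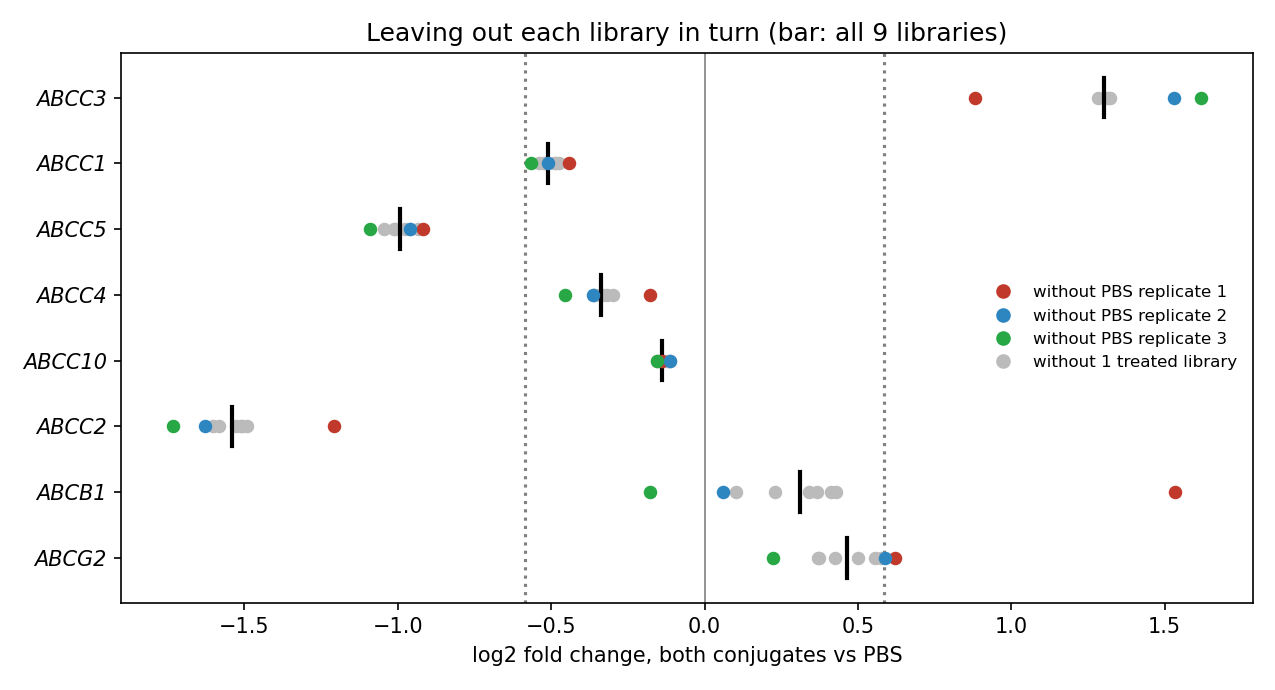
Log2 fold change of each transporter for both conjugates against PBS when each of the 9 libraries is left out in turn (points), beside the value from all libraries (bars), with dotted lines at 1.5-fold. ABCB1 spreads from -0.18 to 1.53 and ABCC3 from 0.88 to 1.62, depending on the PBS library left out, while ABCC5 stays between -1.09 and -0.92.

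The conjugates were compared directly for the 8 members. None was called, against 0.0273% of all genes (4 of 14653), and every adjusted p was 1.00. At an unadjusted p under 0.05 there was 1 of 8 members, ABCC4, and 540 of all genes, and DESeq2 called no member and 24 genes. ABCC4 was 1.14-fold higher in the P-DXd-titled tumors (interval 1.01 to 1.28, unadjusted p = 0.0371). It was the 1 member whose groups did not overlap, against 8.07% of all genes. The log2 differences of P-DXd-titled minus T-DXd-titled tumors were 0.01 for ABCC3 (interval -0.17 to 0.18), 0.05 for ABCC10 (-0.14 to 0.23), 0.07 for ABCC5 (-0.20 to 0.34) and 0.09 for ABCC1 (-0.12 to 0.30). These intervals leave room for differences of up to 1.27-fold. They were wider for ABCC2 (0.27, -0.37 to 0.90), ABCG2 (0.08, -1.03 to 1.19) and ABCB1 (0.21, -0.91 to 1.34), which leaves room for differences of up to 2.53-fold.

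Of the other 40 human ABC family genes, 37 were listed and 35 tested, and 8 rose and 9 fell in treated tumors against PBS (15.2% and 17.1% of all genes), with a median log2 fold change of -0.09 against -0.01 for all genes. ABCG1, a sterol exporter of macrophages and other cells, went from 1.47 ± 0.288 CPM in PBS (SD, n = 3) to 15.8 ± 1.89 CPM in treated libraries (n = 6), 10.6-fold (log2 3.41 ± 0.17). ABCA1, which loads cholesterol onto apolipoprotein A-I, went from 13.8 ± 3.39 to 57.1 ± 3.87 CPM (log2 2.02 ± 0.14). The lipid transporters ABCA3 (log2 1.76) and ABCA4 (1.2) and the peptide transporter TAP1 (0.90) also rose, as did ABCD2 (2.18) and ABCA9 (2.04), which were under 1 CPM on average in every group. ABCC9, the sulfonylurea receptor of potassium channels, fell most within the ABCC branch, from 12.9 ± 8.02 to 2.47 ± 0.551 CPM (log2 -2.42 ± 0.31), and was at -1.76 without PBS replicate 1. ABCA10 (-1.79), ABCA12 (-1.70), ABCB6 (-1.04) and ABCA13 (-1.02) fell too, with ABCA10 at -1.2 without PBS replicate 1. ABCA9 was not called without PBS replicate 2 or 3, nor when P-DXd-titled replicate 2 was dropped, nor without the T-DXd-titled replicate 1 or 2 (log2 1.61 to 1.94 and adjusted p 0.0534 to 0.115), and was at 3.14 without PBS replicate 1. ABCD2 was not called without PBS replicate 2 (1.97, adjusted p = 0.0843) or 3 (2.19, adjusted p = 0.0587), and was at 1.55 without P-DXd-titled replicate 2. ABCA13 was not called without PBS replicate 1 (-0.66, adjusted p = 0.0784). ABCA10, ABCB6 and TAP1 overlap other listed genes.

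**Figure D5:**
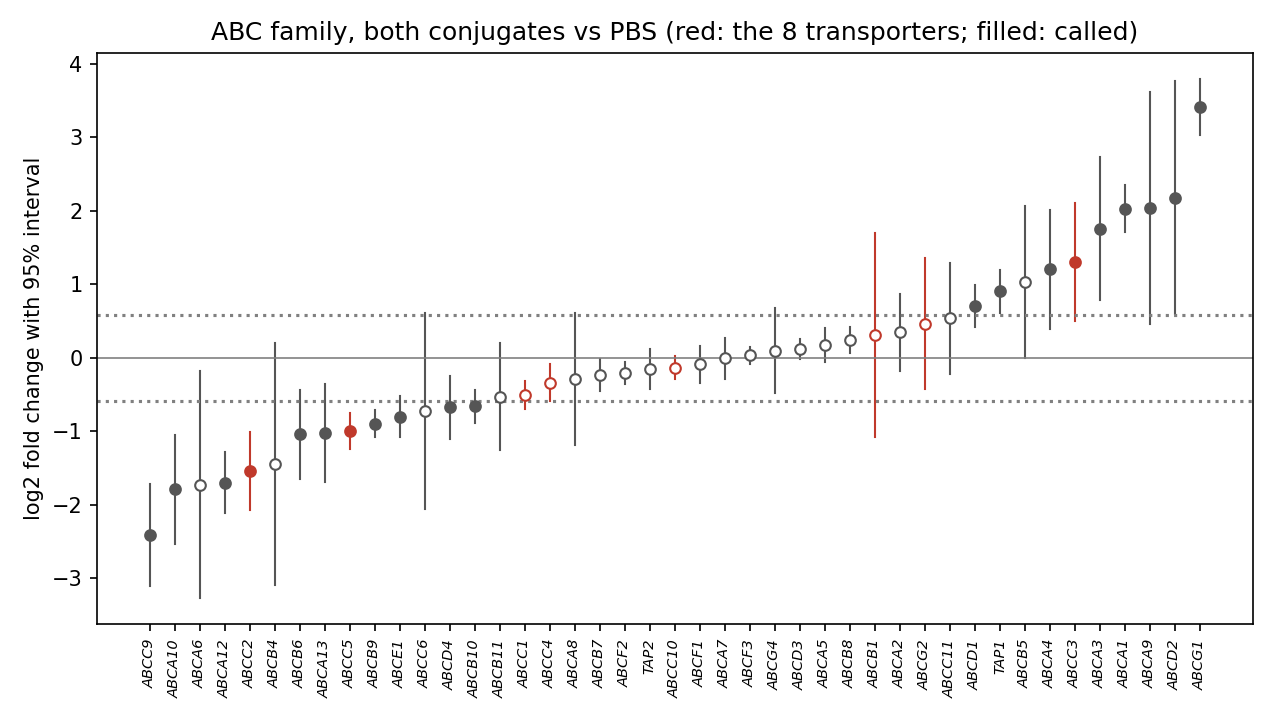
Log2 fold change (both conjugates against PBS, with 95% intervals) of the 43 ABC family genes tested, in order of size. The 8 drug efflux transporters are in red, filled points were called and dotted lines mark 1.5-fold, and the range runs from -2.42 for ABCC9 to 3.41 for ABCG1.

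Among genes that control, anchor or feed these pumps, the counts over both conjugates against PBS were read against the same 15.2% and 17.1% of all genes. Of 7 regulators tested, 1 rose and none fell. AHR, the ligand-activated factor that induces ABCG2 and phase II enzymes, went from 117 ± 34.9 CPM (SD, n = 3) to 269 ± 30.6 CPM (n = 6, log2 1.19 ± 0.17, adjusted p = 2.53e-04). NFE2L2 (log2 0.42), which activates ABCC genes under oxidative stress, and its inhibitor KEAP1 (0.37) passed the p threshold and missed the fold, as did RXRA (0.25). Of 7 scaffold and vault genes, 3 rose and 1 fell. PDZK1, a PDZ scaffold that holds ABCC2 and other transporters at the apical membrane, fell from 7.74 ± 3.74 to 2.36 ± 0.294 CPM (log2 -1.74 ± 0.25), and SLC9A3R2, another PDZ scaffold (1.27), and MVP, the major vault protein (1.11), rose.

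Of 5 non-ABC exporters, 1 rose and 1 fell. SLC46A3, a lysosomal exporter of conjugate catabolites, rose from 5.70 ± 0.317 to 11.0 ± 1.34 CPM (log2 0.93 ± 0.13), and SLC47A2 (MATE2), at 0.620 ± 0.354 CPM in PBS and 0.229 ± 0.0974 CPM in treated libraries, fell (-1.44 ± 0.45). Without PBS replicate 1 the latter was -0.86 (adjusted p = 0.138) and the list had 1 called gene instead of 2. Of 20 glutathione and conjugation genes, 6 rose and 2 fell. UGT1A1 (log2 2.97) and UGT1A6 (2.19), which glucuronidate drugs, rose while staying under 1 CPM on average in every group, and their shared exons make the split of reads between them uncertain. UGT1A1 was at 3.65 without PBS replicate 3 and UGT1A6 at 3.12 without PBS replicate 2. SULT1A3, a sulfotransferase with a near-identical copy, fell (-2.06) from 0.280 ± 0.135 CPM, and was not called without PBS replicate 1 (-1.68, adjusted p = 0.0598).

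Of 11 uptake and hydrolysis genes, 1 rose and 3 fell. SLCO1B3, the organic anion uptake carrier known to take up the payload in liver, fell from 7.82 ± 0.491 to 2.82 ± 0.289 CPM (2.81-fold, log2 -1.49 ± 0.13, adjusted p = 1.07e-05), with no overlap between treated and PBS libraries. SLCO3A1 rose (0.86) and CES3, a carboxylesterase, fell (-1.05). SLCO3A1 was not called without PBS replicate 2 (0.71, adjusted p = 0.0808) or 3 (0.77, adjusted p = 0.0635), where the list had 2 called genes instead of 4. CES3 was not called without PBS replicate 2 or 3, when P-DXd-titled replicate 2 or 3 was dropped, when 1 of T-DXd-titled replicates 1 and 3 was dropped (log2 -1.01 to -0.92, adjusted p 0.0694 to 0.129), with all 9 libraries in 1 fit (adjusted p = 0.0551), or with the first number of the title codes as a replicate block (adjusted p = 0.0512).

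The genes most like each member were found by Pearson's r of log2 CPM over the 9 libraries, among 15069 genes, for the 6 members with a mean of at least 1 CPM. All points share their library and its depth, and differences between groups enter every r. ABCC3 was most like SPDEF (r = 0.999), an epithelial transcription factor, and BHLHE41 (0.999). ABCC3 was far lower in PBS replicate 1 (27.5 CPM) than in any other library, and r without that library was not computed. ABCC2 was most like the RNA helicase gene DDX39A (0.996) and CCDC34 (0.994), and ABCC5 most like CHML (0.994) and MYSM1 (0.990). ABCC1 was most like GLE1 (0.983) and BNC1 (0.983), ABCC4 most like SLC7A2 (0.978) and RP11-47I22.3 (0.971), and ABCC10 most like MTOR (0.932) and ANKRD13B (0.930).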

How the data were processed

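Poly(A) RNA of 9 xenograft tumors was sequenced. Per the labels and methods, the authors used cutadapt for trimming, STAR with GRCh38.p13 for alignment and featureCounts for the raw counts per gene that were deposited, in 2 tables that repeat the PBS libraries. How mouse reads were handled is not given in the sources used here. Listed coordinates equal those of GENCODE v44, which is on GRCh38, for 44 of 15869 shared gene IDs. They mostly do not match the build named for alignment, so they are quoted on an unnamed build. All 16008 genes in both tables are protein coding.

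Groups were compared on the deposited counts with edgeR 4.0.16 in R 4.3.3 (filterByExpr, TMM scaling, quasi-likelihood F test, two-sided, Benjamini-Hochberg over all genes tested), using only the groups compared, and called at an adjusted p of at most 0.05 and a fold change of at least 1.5. Levels are CPM on TMM-scaled totals. Replicates differed beyond sampling noise (chi-square per gene 17.2 to 388). Alternatives were DESeq2 1.42.0, other scaling, no filter, all 9 libraries in 1 fit, a replicate block and each library left out. Every member was named, as were up to 12 other ABC genes and up to 3 genes of each pathway list, called over both conjugates and taken by absolute log2 fold change, with EZR and other called genes left to the counts. Members and lists were chosen with earlier results of these data known. Transcript lengths came from GENCODE v44 and promoters from RefSeq GRCh38.p14.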

Additional observations from a re-analysis of the deposited data

How the results depend on the processing

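The sample titles end in codes whose first number, 1 or 2, recurs in every group, and the labels do not say what it marks. With that number as a replicate block, chosen after seeing the data, 2, 2, 3 and 0 members were called in the P-DXd-titled, T-DXd-titled, pooled and between-conjugate comparisons, the same numbers as without it, and the ABCC5 difference between conjugates was -0.037. Of 408 alternative values for the members, 382 kept their direction and side of the threshold. Among those that keep all libraries, ABCC3 was called against PBS with all 9 libraries in 1 fit in both single-conjugate comparisons and by DESeq2 in the T-DXd-titled one, and its difference between conjugates was -0.0074 under total-count scaling, an alternative chosen after seeing the data. Leaving out 1 library moved the number of members called in the P-DXd-titled comparison between 1 and 3. In the same leave-outs the ABCB1 log2 fold change ranged from -0.069 to 1.64 (P-DXd-titled), -0.29 to 1.41 (T-DXd-titled), -0.18 to 1.53 (both conjugates) and -0.27 to 0.52 (between conjugates). Between conjugates ABCG2 ranged from -0.14 to 0.37, ABCC3 from -0.065 to 0.056 and ABCC5 from -0.034 to 0.20. Counted over the exon union, also chosen after seeing the data, ABCC3 held 58.1% of the summed level of treated libraries instead of 60.3%. The causes were not tested. Counts per library were 6 to 50 for ABCB1 and 12 to 25 for ABCG2.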
